A study of Populus trichocarpa with 28 samples.

Results

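Mature leaves of Populus trichocarpa, the black cottonwood, were sampled after 24 hours of drought, and 4 of the 28 libraries of the study belong to them. They were chosen by their labels: short-term treatment, mature leaves and total RNA. Control libraries 19 and 49 and drought libraries 35 and 69 are called by the numbers in their titles. All plants were rooted stem cuttings grown in a greenhouse at 20 to 35 C and kept at field capacity for 2 months. Controls stayed there, and drought plants were held at 40% of it for 24 hours. The study also held short-term apex and long-term (25 days) apex, young leaves, mature leaves and root. No genotype other than the species was given. Whether both libraries of an arm came from separate plants is not stated, so p-values measure the spread between these libraries, which may be technical.

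When soil water falls, leaves accumulate abscisic acid, stomata close and less carbon is taken up. Genes for protective proteins and compatible solutes are typical of the genes that rise in such leaves, and genes of growth and photosynthesis of those that fall. A stranded library tells RNA of a gene from RNA of the opposite strand, called antisense RNA, which can overlap a gene without coding for its protein. Reads over introns can come from RNA that has not been spliced. Depletion of ribosomal RNA, used here in place of poly(A) selection, keeps such RNA.

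The gene IDs of the count files carry no names. None of the 41335 IDs matched the reference table of 34621 genes at hand, so lists by product name (abscisic acid, dehydrins, osmolytes, aquaporins, photosynthesis and others) had 0 members, and genes are given by ID without a role.

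Sense reads per library numbered 32306721 to 43672820, antisense reads 1604915 to 1817111, sense reads over introns 2777829 to 3440773, and antisense reads over introns 505398 to 815494. Levels are in CPM, counts scaled to the TMM-corrected sense total of their library, also for antisense and intron reads. Log2 levels correlated at r = 0.9873 within the control pair, 0.9814 within the drought pair and 0.9212 to 0.9426 across arms, over genes, which are not independent replicates. The median gene differed by 0.196 on the log2 scale between the control libraries, by 0.174 between the drought libraries and by 0.326 between the arm means. Control library 19 stood apart in antisense reads, with 5.62 per 100 sense reads against 3.97 in control library 49, 4.07 in drought library 35 and 4.03 in drought library 69. Potri.018G115200, an ID chosen after its values were seen, had 538094 antisense reads in control library 19 and 194584 to 303339 in the others.

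The labelled tissue was checked against lists of tissue genes from the 8 control libraries of the long-term experiment, none of which enters the leaf comparison. A list holds genes called higher in 1 tissue than in each of the other 3, by more than 2 on the log2 scale. The 245 genes of the mature leaf list summed to 1.37% and 1.01% of sense CPM in the leaf control libraries and to 0.210% and 0.112% in the apex control libraries of the same experiment. For the 679 genes of the apex list the sums were 0.0401% and 0.0509% in leaf and 2.36% and 2.98% in apex. The control libraries thus ranked as their tissue labels say for both lists. Under drought the mature leaf list did not separate the tissues, at 2.41% and 4.53% in leaves and 4.11% and 3.48% in the apex, and the apex list stood at 0.520% and 0.459% in leaves and 1.20% and 0.676% in the apex.

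Drought changed the sense level of 4492 of 25054 genes, 17.9% of those tested, by the quasi-likelihood test of edgeR, with 0.05 as the limit for the Benjamini-Hochberg adjusted p here and in every other call. Of these, 2186 rose and 2306 fell. In all, 8363 genes had both drought libraries above both controls and 8182 had both below, so most genes whose arms did not overlap were not called. The median change was 1.17 on the log2 scale among risers and -1.42 among fallers. Fallers were the larger group past 2-fold (1740 against 1346) and past 4-fold (642 against 521), while past 16-fold 157 genes rose and 75 fell.

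**Figure D1:**
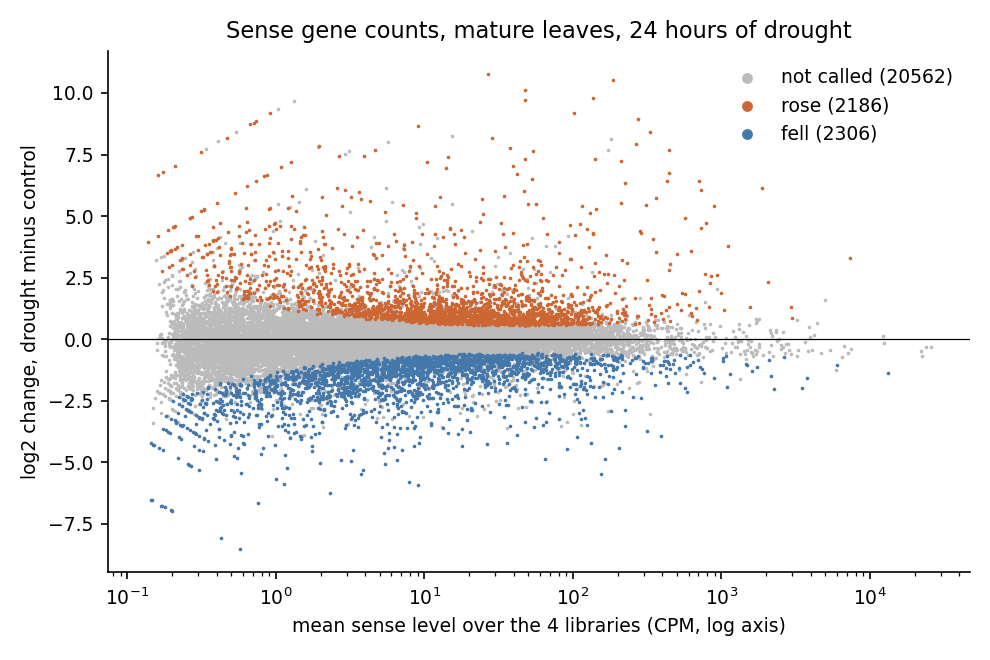
Each point is 1 of the 25054 sense genes tested, placed by its mean level over the 4 libraries (CPM, log axis) and its log2 change, drought minus control; 2186 rose (orange) and 2306 fell (blue). The share called increases with the level, and the largest changes are rises.

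The risers and fallers were chosen by their change in these same libraries. The direction of their summed shares was thus largely fixed, and only the size is informative. Risers held 5.49% and 5.08% of sense reads in control libraries 19 and 49, and 16.1% and 17.8% in drought libraries 35 and 69. The fallers went the other way, from 16.5% and 16.1% in the controls to 7.60% and 6.34% under drought. In bulk samples a lower level of a gene can mean fewer cells of a type or less RNA per cell, which cannot be told apart.

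The share of genes called rose with the mean level, from 10.9% of genes under 1 CPM through 15.3%, 18.8% and 22.7% to 27.7% of genes over 100 CPM. Among genes of 20 to 100 CPM, risers outnumbered fallers (794 and 494), and among genes of 1 to 5 CPM fallers outnumbered risers (619 and 363). Few genes were switched between no reads and many. Of the risers, 9 had 0 counts in both control libraries and 66 had at most 3. Of the fallers, 9 had 0 counts under drought and 54 had at most 3.

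The 2 risers with the largest gain in CPM were Potri.011G118900 and Potri.017G146600. Potri.011G118900 stood at 1700 and 990 CPM in control libraries 19 and 49 and at 6570 and 20100 in drought libraries 35 and 69. Both drought libraries were above both controls, and they were far from each other. Its log2 change was 3.31 (SE 0.66, adjusted p = 0.0371), and the call was lost without control library 19 (adjusted p = 0.169), without control library 49 (adjusted p = 0.181) and without a count filter (adjusted p = 0.107). Potri.017G146600 stood at 69 and 36.8 CPM in the controls and at 3680 and 3740 under drought, a log2 change of 6.13 (SE 0.38, adjusted p = 0.000639). Here the drought libraries lay close together, and the call held without each library in turn.

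Among the fallers, Potri.004G100000 lost the most CPM. It went from 17700 and 20300 CPM in the controls to 8460 and 6050 under drought, a log2 change of -1.39 (SE 0.24, adjusted p = 0.0133). Potri.004G218400 went from 6180 and 4990 CPM to 1570 and 1290, a change of -1.97 (SE 0.22, adjusted p = 0.00386). In both genes the arms were well apart, yet neither call held without control library 19 (adjusted p = 0.108 and 0.0748) or 49 (adjusted p = 0.108 and 0.0644).

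Larger folds were found at lower levels. Potri.013G014300 had 1 count in each control library and 1966 and 2488 in the drought libraries. Potri.001G042600 went from 0.182 and 0.305 CPM to 391 and 351. Potri.017G128400 went the other way, from 10.3 and 25.4 CPM to 0.507 and 0.0507, and Potri.014G022900 from 15.4 and 15.3 CPM to 0.287 and 0.253. These 4 were known from an earlier look at the data. The call of Potri.017G128400 was lost without control library 19 (adjusted p = 0.103), without control library 49 (adjusted p = 0.116) and without a count filter (adjusted p = 0.0918).

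**Figure D2:**
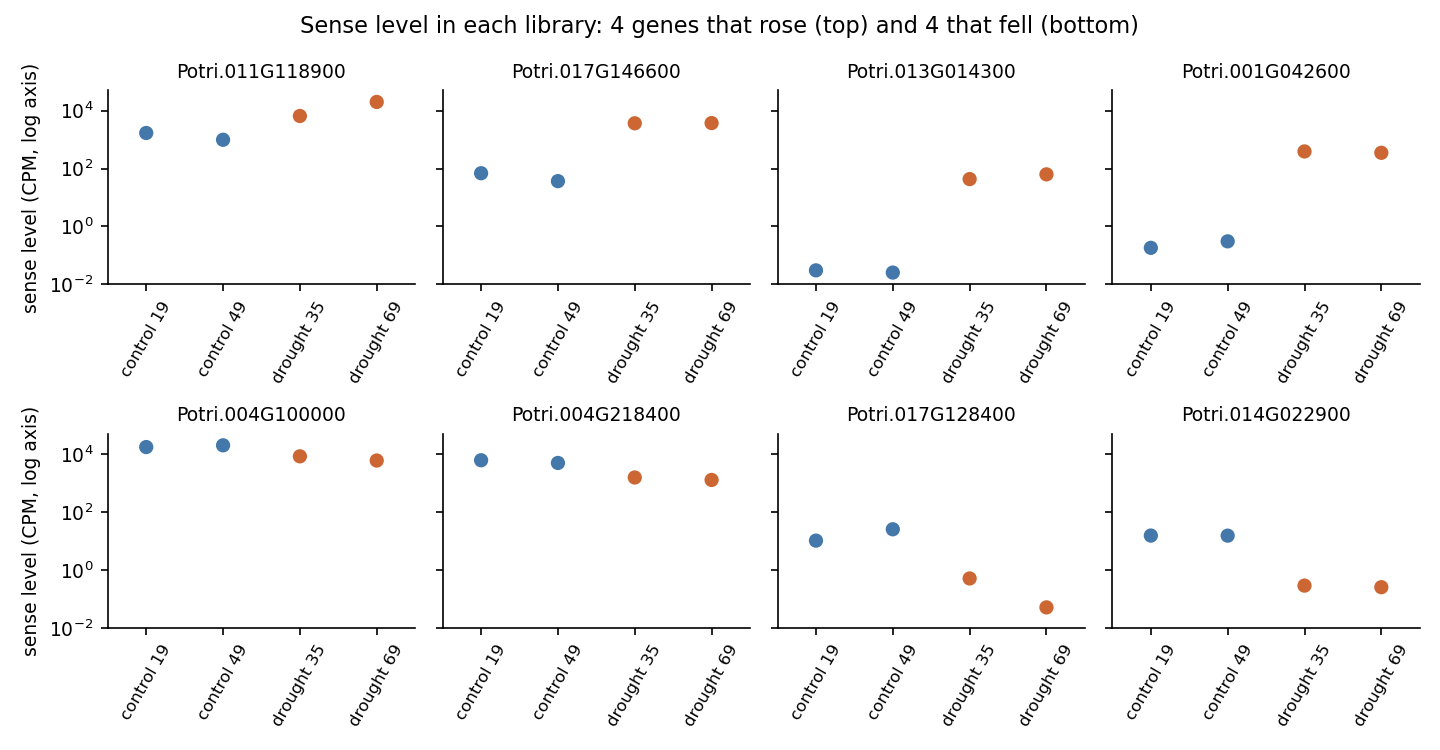
Sense level (CPM, log axis) of 8 genes in each of the 4 leaf libraries, control in blue and drought in orange; each point is 1 library. In the 4 upper genes both drought libraries lie above both controls, in the 4 lower genes below, and the drought libraries of Potri.011G118900 and Potri.017G128400 are the most spread.

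Calls on the sense strand depended on which library was left out. With 1 library in an arm its spread is taken from the other arm. Without control library 19 there were 71 risers and 41 fallers, without control library 49 there were 67 and 25, without drought library 35 there were 3127 and 3648, and without drought library 69 there were 2444 and 2692. All 4492 genes kept their direction in each of these fits, and 86 kept their call in all of them (63 up, 23 down). With a test for changes over 2-fold, 303 rose and 294 fell.

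Some adjacent gene IDs were called in the same direction. How many such runs arise when 17.9% of all sense genes are called was not tested. The longest run of called genes in 1 direction was Potri.006G279200 to Potri.006G279600, 5 IDs in a row that rose (chosen after their values were seen). Potri.006G279600, the highest of them, went from 27.0 and 27.3 CPM to 42.1 and 42.8, and Potri.006G279300 had the largest fold, from 0.182 and 0.178 CPM to 1.81 and 1.17. The other 3 rose by 1.15 to 2.47 on the log2 scale (Potri.006G279200, Potri.006G279400 and Potri.006G279500). Positions of genes were not used, so neighbours are by number in the ID alone.

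Intron reads on the sense strand followed the genes. Of 15081 entries tested, 669 rose and 1124 fell, 11.9% in all. Sense intron reads were 8.60 and 8.29 per 100 sense reads in the controls and 7.03 and 7.28 under drought. The means ± SD were 8.44 ± 0.219 and 7.16 ± 0.177 (n = 2). A two-sided exact permutation test gave p = 0.33 and cannot go lower with 2 libraries an arm. With TMM-corrected intron totals in place of TMM-corrected sense totals as the scale, 892 entries rose and 879 fell. The median change went from -0.13 to -0.01 on the log2 scale. Own totals of other kinds of count are TMM-corrected in the same way. The most abundant intron entries held much of the sense intron reads. The top 3 of each library made up 46.3% and 53.8% in control libraries 19 and 49. They made up 38.2% and 41.1% in drought libraries 35 and 69. Part of the difference in share thus lay in a few entries, and whether it held in the rest was not tested. Potri.018G115400 had 181550 to 500165 intron counts beside 19 to 41 gene counts (chosen after its values were seen). Where such reads came from was not tested.

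Gene and intron changes correlated at r = 0.817 over the 14921 genes tested for both, which share libraries and scaling. Among the 1467 sense risers also tested over introns, the intron reads of 438 rose and those of 1 fell. Of 1069 that fell, intron reads fell in 636 and rose in 1. Among 12385 genes with no sense call, intron reads rose in 218 and fell in 482.

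Among called intron entries whose arms did not overlap, the largest gains in CPM were in 2 IDs close in number. Potri.004G187400 went from 0.515 and 0.940 intron CPM in the controls to 308 and 193 under drought, a log2 change of 8.40 (SE 0.49, adjusted p = 2.16e-18), while its gene reads went from 2.21 and 2.08 CPM to 597 and 454. Potri.004G187200 went from 0.515 and 0.762 intron CPM to 183 and 120, and its gene reads from 0.242 and 0.432 CPM to 249 and 155. Both arms were fully apart on both measures, and both intron calls held without each library in turn. The largest losses in CPM within that same set were in Potri.018G025900, from 75.3 and 56.9 intron CPM to 10.7 and 2.81, and Potri.T005700, from 110 and 65.3 to 39.0 and 37.4. Neither held throughout: Potri.018G025900 lost its call when control library 19 (adjusted p = 0.485) or 49 (adjusted p = 0.341) was left out, and Potri.T005700 lost it without control library 19 (adjusted p = 0.0720), library 35 (adjusted p = 0.147) or library 69 (adjusted p = 0.267).

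**Figure D3:**
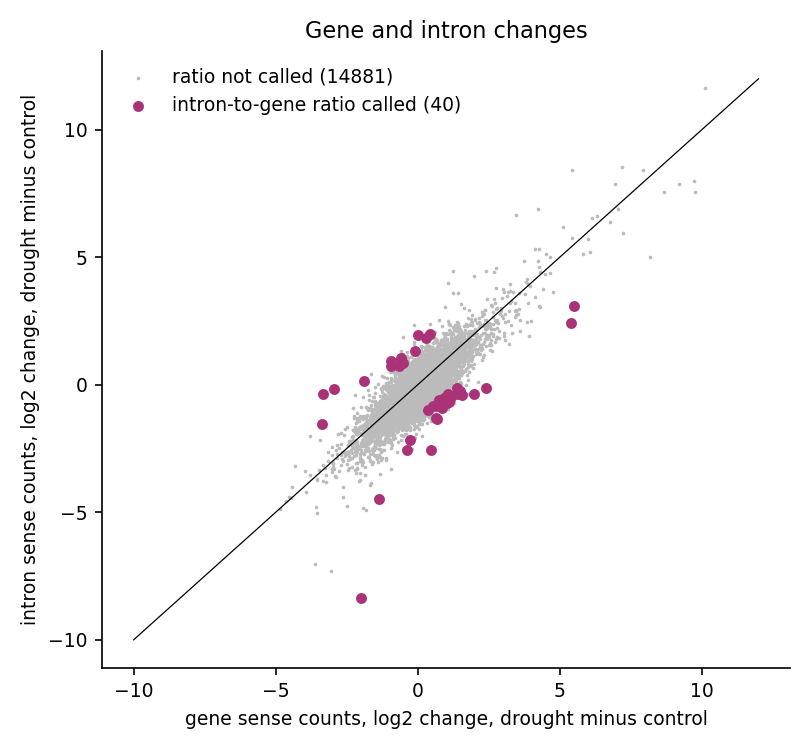
Log2 change, drought minus control, of gene sense counts (x axis) and intron sense counts (y axis) for the 14921 genes tested for both; the line marks equal change, and the 40 genes whose intron-to-gene ratio was called are in purple. The 2 changes correlate at r = 0.817, and the called genes lie off the line.

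The ratio of intron to gene reads moved in few genes. It rose in 13 and fell in 27 of 14921, 0.268% of those tested, with 2120 at an unadjusted p under 0.05. Of the 27 with a fallen ratio, 17 were sense risers, and of the 13 with a risen ratio, 5 were sense fallers. Of all 14921 genes, 1467 were sense risers and 1069 sense fallers. Gene reads are the divisor of the ratio, so this split is partly built in. The count was unstable: 62 rose and 87 fell with each kind of count scaled by its own totals, and leaving out control 19 gave 253 calls, control 49 gave 2800, drought 35 gave 9 and drought 69 gave 4.

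In Potri.012G047400, which had the largest rise of this ratio among genes past the level limit, gene reads were 77.4 and 94.9 CPM in the controls and 10.9 and 5.98 under drought. Its intron reads were 48.7 and 46.3 CPM in the controls and 36.8 and 37.4 under drought, and the log2 ratio rose by 3.04 with an SE of 0.31 (adjusted p = 3.76e-05). Potri.011G140700 had the same form, with gene reads from 22.7 and 20.4 to 2.38 and 3.17 CPM, intron reads of 2 and 1.42 CPM against 1.12 and 1.95, and a ratio change of 2.79 (SE 0.30, adjusted p = 4.80e-05). In both genes the intron reads themselves were not called, and in Potri.012G047400 there were 76.9 to 102 CPM of antisense intron reads in the controls and 55.9 to 67.1 under drought.

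Among genes past the level limit, the ratio fell most in Potri.006G126800 and Potri.010G236400. Intron reads of Potri.006G126800 went from 5.08 and 3.61 CPM to 0.176 and 0.203, and gene reads from 637 and 462 to 141 and 291 (ratio change -3.09, SE 0.44, adjusted p = 0.00258, and adjusted p = 0.323 without drought library 69). Potri.010G236400 rose on both measures, gene reads from 0.787 and 0.330 CPM to 31.8 and 14.3 and intron reads from 0.363 and 0.305 to 2.40 and 1.14 (ratio change -3.01, SE 0.47, adjusted p = 0.00477).

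Antisense reads rose in 251 and fell in 108 of 2553 genes tested, 14.1%, and the median change was 2.28 among risers and -2.16 among fallers on the log2 scale. Scaled by their own TMM-corrected totals, 184 rose and 137 fell. Risers, chosen by their change in these same libraries, held 1.05% and 1.15% of antisense reads in control libraries 19 and 49. In drought libraries 35 and 69 they held 4.37% and 4.78%. Antisense reads per 100 sense reads were 4.80 ± 1.17 in controls and 4.05 ± 0.0283 under drought (mean ± SD, n = 2), and the arms overlapped (p = 1 in a two-sided exact permutation test). Without control library 19, which stood apart in this share, 335 rose and 153 fell. Without control library 49 the numbers were 383 and 319, without drought library 35 they were 11 and 5, and the 10 calls made without drought library 69 were rises. A total of 4 genes, all up, were called in each of these fits.

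Part of the antisense signal had the size of a neighbour's sense signal. Antisense counts lay within 20% of the sense counts of 1 of the 3 nearest gene IDs on either side, in all 4 libraries, for 42 of the 1599 tested genes with at least 10 antisense counts per library. These 42 genes held 37.7%, 50%, 42.2% and 42.3% of antisense reads in control libraries 19 and 49 and drought libraries 35 and 69. The largest was Potri.001G400200, with 449691, 474501, 517396 and 464429 antisense counts beside 458663, 484184, 529880 and 473717 sense counts of Potri.001G400100 (chosen after their values were seen). Reads of overlapping genes on opposite strands could be counted in both files, which was not tested. Of 116 risers at this count 5 were such genes, and of 54 fallers 1 was, and without all such genes 252 rose and 106 fell.

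The antisense rule named examples of both kinds. Antisense levels of Potri.005G258500 were 72.2 and 44.8 CPM in the controls and 195 and 248 under drought (1.92, SE 0.34, adjusted p = 0.0182), and the sense levels of Potri.005G258400 were 72.4 and 44.9, then 195 and 248. Those of Potri.013G032800 fell from 197 and 272 CPM to 52.1 and 41.4 (-2.33, SE 0.32, adjusted p = 0.0115), and Potri.013G032900 had the same 4 values on its sense strand. In both cases the antisense change equals that of the neighbouring ID's sense strand. Potri.006G245500 went from 224 and 134 antisense CPM to 575 and 693 (1.82, SE 0.35, adjusted p = 0.0209), beside 294 and 174, then 784 and 918 sense CPM in Potri.006G245400. Potri.T007900 went from 325 and 326 antisense CPM to 148 and 84.8 (-1.49, SE 0.34, adjusted p = 0.0309). Its adjacent IDs, Potri.T007800 and Potri.T008000, stood at 2.11 CPM or less on their sense strands. The sense strand of Potri.T007900 stood at 0.482 to 1.39 CPM here. In the long-term mature leaves it stood at 397 and 413 CPM in the controls and 246 and 302 under drought. Why the strand differed between these library sets was not tested. None of these 4 calls held without drought library 35 (adjusted p from 0.106 to 0.167) or 69 (adjusted p from 0.139 to 0.312).

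Antisense and sense changes of the same gene correlated at r = 0.273 over 1687 genes, and antisense changes with those of the adjacent ID with more sense reads at r = 0.251 over 2372 genes. Of the 251 antisense risers, the gene's own sense strand rose in 33, fell in 15, was not called in 122 and was not tested in 81. The neighbour's rose in 68, fell in 9, was not called in 160 and was not tested in 14. Of the 108 antisense fallers, the own sense strand fell in 34, rose in 6, was not called in 49 and was not tested in 19, and the neighbour's fell in 33, rose in 7, was not called in 62 and was not tested in 6. Among all 1687 genes with both tests, the sense strand rose in 203 and fell in 215. No such background is given for the neighbours of all 2372 genes. The neighbour was picked for having more sense reads, and the share of genes called rose with the level. The neighbour counts thus cannot be set against those of the own strand. Among 1269 genes with both tests and no sense call, antisense reads rose in 122 and fell in 49.

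**Figure D4:**
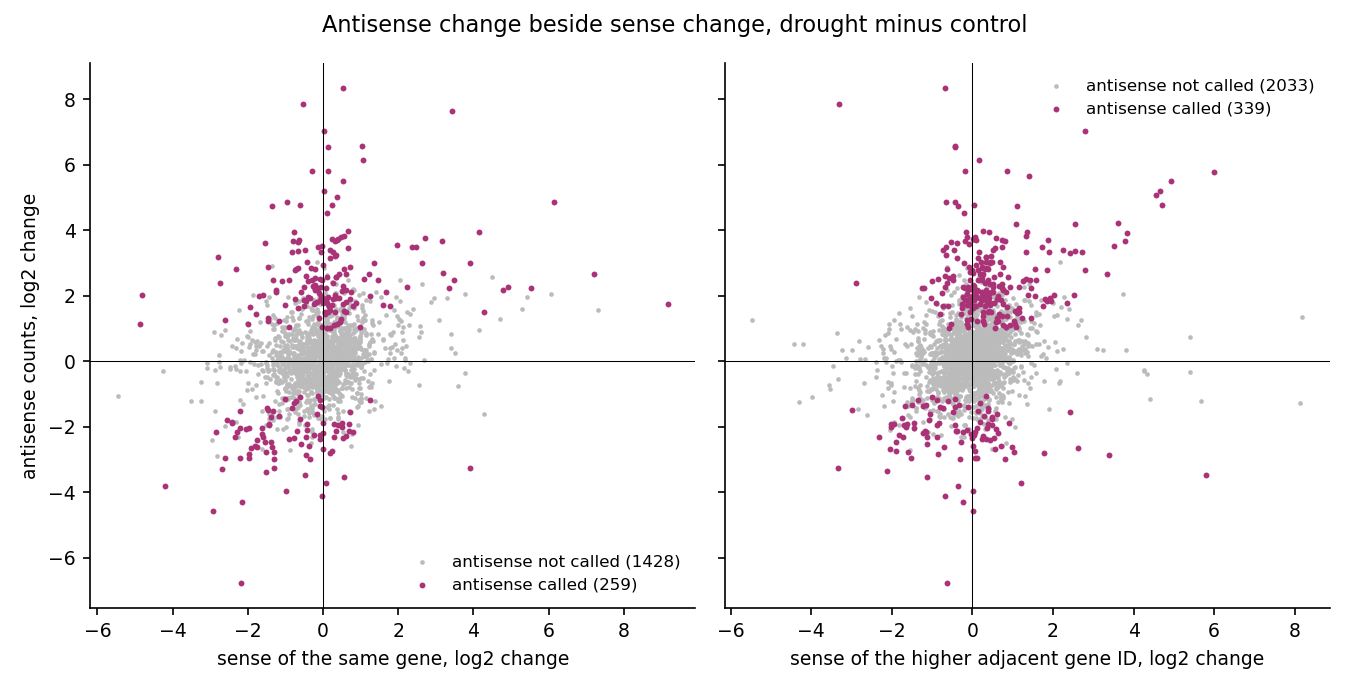
Log2 change, drought minus control, of antisense counts (y axis) against the sense change of the same gene (left, 1687 genes) and of the adjacent gene ID with more sense reads (right, 2372 genes); genes with an antisense call are in purple. Called points lie in all 4 quadrants, with many near a sense change of 0.

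Several genes named for their sense level were read on other strands too. Potri.017G146600 had 0 and 1 antisense counts in the controls and 26 and 16 under drought (log2 change 4.87, SE 0.86, adjusted p = 0.0182), and its intron reads went from 0.0605 and 0.152 CPM to 9.17 and 12.1 (adjusted p = 3.21e-17). All 3 kinds of read were higher in both drought libraries. Antisense reads of Potri.004G218400 went from 4.96 and 1.04 CPM to 0.419 and 0.405 (adjusted p = 0.0382), and those of Potri.004G100000 from 1.79 and 0.991 CPM to 0.507 and 0.329 (adjusted p = 0.0497). Counts of both genes fell on both strands, but antisense counts were few beside sense counts. In the controls Potri.004G100000 had 59 and 39 antisense counts beside 583944 and 799770 sense counts, and Potri.004G218400 had 164 and 41 beside 204259 and 196340. Under drought Potri.017G146600 had 167123 and 147739 sense counts. Whether such antisense reads came from RNA of the opposite strand was not tested. The intron reads of Potri.004G100000 overlapped between arms, at 13.3 and 16.8 CPM in the controls and 19.7 and 11.1 under drought. Potri.011G118900 also overlapped over its introns, with 351 and 107 CPM in the controls and 201 and 1690 under drought (adjusted p = 0.520).

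The ratio of antisense to sense reads rose in 154 genes and fell in 69 of 1687, 13.2%. Of the 154, 54 were sense fallers, 99 had no sense call and 1 was a sense riser. Of the 69, 43 were sense risers and 26 had no sense call. Of all 1687 genes, 203 were sense risers and 215 sense fallers. Sense reads are the divisor of the ratio, so this split is partly built in. Calls numbered 44 without control 19, 39 without control 49, 209 without drought 35 and 173 without drought 69, and 66 without a count filter. Scaled by own totals, 120 rose and 81 fell.

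Among genes past the level limit the strands moved apart most in Potri.002G189300. Its sense level was 314 and 321 CPM in the controls and 18.2 and 3.40 under drought, while its antisense level went from 4.78 and 6.25 CPM to 12.7 and 11.4. Both strands were called (adjusted p = 0.0394 and 0.0309), in opposite directions, and the log2 ratio rose by 6.45 with an SE of 0.81 (adjusted p = 0.00924). Potri.002G032600 was called on the antisense strand and not on the sense strand: its sense level was 36.6 and 41.6 CPM in the controls and 32.5 and 31.4 under drought (adjusted p = 0.238), and its antisense counts were 2 and 1, then 110 and 100. The adjacent ID, Potri.002G032700, rose on its sense strand from 0.182 and 0.0762 CPM to 3.73 and 4.69 (5.03, SE 0.45, adjusted p = 0.00189). Both ratio calls held without each library in turn.

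In the other direction, Potri.009G041700 rose on the sense strand from 97.9 and 93.6 CPM to 1050 and 1260 with antisense levels of 2.33 and 2.57, then 1.70 and 1.19 CPM. Its ratio changed by -4.36 (SE 0.63, adjusted p = 0.00924), a call lost when drought library 35 (adjusted p = 0.0527) or 69 (adjusted p = 0.137) was left out. Potri.001G041800 rose from 7.35 and 5.74 CPM to 20.8 and 55.5 with antisense levels of 5.05 and 4.6, then 3.51 and 2.28 CPM (ratio change -3.14, SE 0.65, adjusted p = 0.0209; adjusted p = 0.0777 without control library 19 and 0.0890 without 49). In neither gene was the antisense strand itself called.

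Over introns, antisense reads rose in 52 and fell in 16 of 546 entries tested, 12.5%. Without control library 19, which had 2.52 such reads per 100 sense reads against 1.27 to 1.51 in the other 3 libraries, 59 rose and 24 fell. Scaled by own totals, 44 rose and 22 fell. The 16 fallers, chosen by their change in these same libraries, held 30.0% and 37.4% of these reads in the controls. Under drought they held 18.4% and 16.9%, and nearly all of it lay in 2 entries. Of 815494 and 627333 antisense intron reads in the controls, Potri.003G020300 had 127647 and 131240 and Potri.005G239200 had 107374 and 94781. The other 14 fallers stood between 0.279 and 138 CPM in the control libraries. Potri.003G020300 went from 3860 and 3330 CPM to 957 and 838 (-2, SE 0.26, adjusted p = 0.00188; adjusted p = 0.0583 without drought library 69). The adjacent Potri.003G020400 had 3860, 3330, 954 and 837 sense CPM. Potri.005G239200 went from 3250 and 2410 CPM to 1300 and 1220 (-1.17, SE 0.26, adjusted p = 0.0235; adjusted p = 0.289 and 0.334 without drought library 35 or 69).

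The risers of this kind were at lower levels. Potri.011G054600 went from 28.5 and 34.4 CPM to 67.4 and 55.9, and Potri.013G039500 from 21.3 and 18.4 CPM to 37.9 and 35.9. Neither was called without drought library 35 (adjusted p = 0.204 and 0.172), without drought library 69 (adjusted p = 0.0591 and 0.118), with own totals (adjusted p = 0.0514 and 0.0537) or by DESeq2 (adjusted p = 0.0956 and 0.129). On its sense strand Potri.011G054600 stood at 0.229 to 0.329 CPM in these libraries and at 44 to 107 CPM in the long-term mature leaves. Why the strand differed was not tested. Potri.014G196900, known from an earlier look at its antisense reads, had 0 antisense intron counts in both controls and 51 in each drought library. This was at least 29.0-fold higher against a floor of 3 counts over the control arm. Its intron reads on the sense strand were 0.908 and 0.788 CPM in the controls and 1.06 and 1.14 under drought, with adjusted p = 0.594.

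Some genes from the lists of other tissues stood higher in the drought leaves. The apex list summed to 0.0401% and 0.0509% of sense CPM in control libraries 19 and 49 and to 0.520% and 0.459% in drought libraries 35 and 69. This gain lay in the 41 of its 679 genes that rose, from 0.00516% and 0.00484% to 0.488% and 0.408%. A further 22 fell, so that 29.2% of the tested genes were called against 17.9% of all sense genes. Another 153 were not called and 463 were too low to be tested, among them 99 with 0 counts in all 4 libraries. The 463 summed to 0.00209% and 0.00275% in the controls and to 0.00220% and 0.00205% under drought. The median change of the 216 tested was -0.224 on the log2 scale, against -0.000102 over all sense genes tested. Its most abundant member in the drought libraries, Potri.009G148000, went from 5.39 and 3.30 CPM to 987 and 778 (chosen after its values were seen). With the limit set at 3 on the log2 scale, the apex list had 307 genes. Their sums were lower, at 0.00996% and 0.0142% in the controls and 0.0674% and 0.0733% under drought. Most of the drought sum thus lay in genes that only the limit of 2 admits.

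The mature leaf list behaved unevenly. Of its 245 genes 30 rose, 53 fell, 136 were not called and 26 were not tested, so that 37.9% of those tested were called against 17.9% of all sense genes. Their median was -0.566 on the log2 scale. Its sum nevertheless went from 1.37% and 1.01% of sense CPM to 2.41% and 4.53%, through its risers, which went from 0.548% and 0.401% to 1.61% and 3.20%. Its most abundant gene was Potri.011G118900, described above, and without it the sum was 1.20% and 0.913% in the controls and 1.75% and 2.52% under drought. Sum and median thus differed in sign.

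The root list had 73 risers and 86 fallers among 700 tested of 1854 genes, 22.7% called against 17.9% of all sense genes, with a sum of 0.295% and 0.301% in the controls and 0.436% and 0.580% under drought. At a stricter limit of 3 on the log2 scale the root sum was 0.125% and 0.135% in the controls and 0.121% and 0.147% under drought, so the arms overlapped. Of the young leaf list, 13 of 39 tested genes fell and 2 rose, 38.5% against 17.9% of all sense genes, with a median of -1.31, and its sum went from 0.0994% and 0.128% to 0.0634% and 0.0521%. At the stricter limit the young leaf list had 11 genes, of which 3 fell, and the median of the 8 tested was -0.179. The part of other cell types in the gene changes was not tested.

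**Figure D5:**
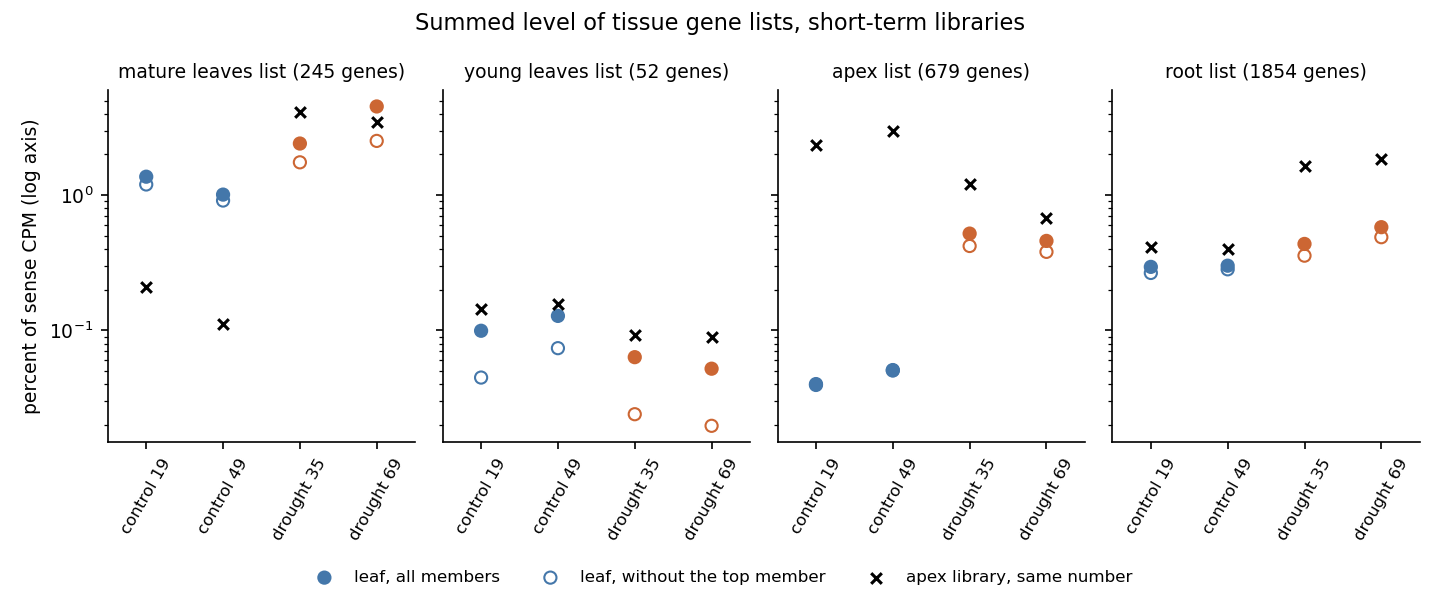
Summed level of 4 tissue gene lists as a percent of sense CPM (log axis) in each short-term leaf library (filled circles, control blue and drought orange), the same without the most abundant member (open circles), and in the apex library with the same title number (crosses). The apex list is near 0.05% in control leaves and near 0.5% in drought leaves, and the young leaf list is lower in both drought leaves than in both control leaves.

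Many genes changed in leaves and apex alike in the same 24 hours, in separate libraries. Over 24388 genes tested in both tissues the log2 changes correlated at r = 0.543. Far more of these genes were called in the apex, where 7602 rose and 7570 fell, against 2158 and 2166 in leaves. Of 2158 leaf risers, 1577 also rose in the apex, 73.1% of the leaf risers and 20.7% of the 7602 apex risers. Of 2166 leaf fallers, 1364 also fell in the apex, 63% of the leaf fallers and 18% of the 7570 apex fallers. A difference between tissues in the drought response (an interaction) was called for 7875 of 27796 genes, 28.3%, with 4371 higher and 3504 lower in leaves. Most of these were genes that the apex changed: 3104 of the 4371 fell in the apex and were not called in leaves, and 2362 of the 3504 rose in the apex and were not called in leaves. Genes that the leaf changed alone in its own test, with an interaction, numbered 266 up and 337 down. A total of 157 rose in leaves and fell in the apex, and 196 fell in leaves and rose in the apex, all with an interaction call. The counts were 2382 without libraries numbered 19 and 2443 without those numbered 49.

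Potri.009G049900 had the largest difference toward leaves among genes past the level limit. It went from 0.0303 and 0.178 CPM to 130 and 59.3 in leaves and from 1.46 and 3.12 CPM to 0.888 and 0.414 in the apex, an interaction of 11.53 (SE 1.08, adjusted p = 0.000852). Potri.001G145200 was among the largest in the other direction, from 2.57 and 2.72 CPM to 1.08 and 0.583 in leaves and from 0.390 and 0.286 CPM to 13.6 and 17.1 in the apex (-7.10, SE 0.46, adjusted p = 6.42e-05). In both genes the 2 tissues went in opposite directions, with a call in each.

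The 24 hour response of mature leaves was set beside that at 25 days, in libraries that share no sample with it. Those were mRNA libraries, so library type and duration cannot be told apart. Of 2050 risers at 24 hours that were tested in both, 74 rose and 49 fell at 25 days. Of 2097 fallers, 413 fell and 16 rose. The 413 were 19.7% of the early fallers and 44.0% of the 938 late ones, and the 74 were 3.61% of the early risers and 25.6% of the 289 late ones. Among all 22841 genes tested in both, 289 rose and 938 fell at 25 days. Log2 changes correlated at r = 0.364 over these genes.

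The difference itself was called in 1098 of 25803 genes, 4.26%, of which 639 were higher and 459 lower at 24 hours. Of the 639, 412 rose at 24 hours with no call at 25 days, and 49 rose at 24 hours and fell at 25 days. Of the 459, 285 fell at 24 hours with no call at 25 days, and 16 fell and then rose. Leaving out each library in turn gave 207 calls (without short-term control library 19) to 1793 (without short-term drought library 35).

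Potri.001G192600 was at 0.303 and 0.0508 CPM in the short-term controls and at 18.3 and 39.1 after 24 hours, and at 5.09 and 3.01 CPM in the long-term controls and 0.800 and 0.486 after 25 days. The difference between terms was 10.03 (SE 0.93, adjusted p = 0.00308), with a call in each term. Potri.016G125400 went from 4.12 and 8.54 CPM to 0.485 and 0.0507 after 24 hours and from 3.57 and 5.02 CPM to 13.9 and 19.6 after 25 days (-6.52, SE 0.92, adjusted p = 0.0152). This second interaction lost its call without short-term control library 49 (adjusted p = 0.0594) or long-term control library 63, control library 70 or drought library 68 (adjusted p = 0.0603, 0.0523 and 0.0593). Both genes were on the same side in each library of an arm, so the arms did not overlap in either term.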

How the data were processed

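Stranded total RNA libraries were made from CTAB extracts treated with DNase I, after 2 rounds of Ribo-Zero, per the labels' protocols. The authors deposited raw read counts per gene and per intron entry on each strand. TopHat2 2.1.0, HTSeq 0.6.0 and DESeq2 are named in the submitters' processing notes. The genome build, annotation and counting options are not given in the sources used here, so genes that overlap or share sequence are uncertain. Closing lines that name no gene were left out of totals and tests (95.3% to 96.6% of alignments in the antisense gene files). Of 33330 intron entries, 109 join several genes and were left out of the intron-to-gene ratio.

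Tests used the quasi-likelihood functions of edgeR 4.0.16 in R 4.3.3 (limma 3.58.1), after filterByExpr (a count of 10 scaled to library size, 15 in total), with TMM, robust estimates and Benjamini-Hochberg adjusted p under 0.05. Antisense and intron counts used the sense library sizes. Ratios were strand by arm or kind by arm terms with a term per library, and interactions were fitted over 8 libraries. SEs are the log2 change over the root of F. DESeq2 1.42.0, other scalings and filters, and leaving out each library were alternatives, as were fits without genes that match a neighbour, chosen after seeing the data. Fits were also run on simulated counts with the same spread setting for all genes and libraries. They were thus not tested under a spread that differs between libraries. Figures were drawn with matplotlib 3.10.9.

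The members, lists and tests were chosen with earlier results of these data known. Named genes are, per comparison, at most 2 up and 2 down with the largest difference in mean CPM (ratios and interactions: the largest log2 difference). They come from called genes whose mean reached 5 CPM on the sense strand, or 1 CPM for antisense and intron reads. Outside the interactions, their arms do not overlap. For interactions, arms were allowed to overlap, and the other tissue or term alone could pass the level limit, as the apex did for Potri.012G018300. IDs known from earlier results were repeated where another count kind was added. Replicates differed by more than counting noise. Floors and intervals cover counting error only.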

Additional observations from a re-analysis of the deposited data

Results flagged for a closer look

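Drought responses differed between groups by an interaction test in 7875 genes between mature leaves and apex (leaf minus apex, 24 hours) and in 1098 genes between 24 hours and 25 days in mature leaves.

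Between tissues, the log2 differences of the genes named by rule were 11.53 for Potri.009G049900, 10.89 for Potri.012G018300, -9.94 for Potri.015G092000 and -7.10 for Potri.001G145200. Potri.012G018300 had 2 and 9 sense counts in the leaf controls and 3 and 2 in the drought leaves and was not tested there, and it was at 17 and 16.4 CPM in the apex controls with 0 counts in the drought apex, so the fitted value depends on the prior count and is no bound. Potri.015G092000 was likewise at 0.0882 to 0.127 CPM in all 4 leaf libraries, with 1.10 and 0.208 CPM in the apex controls and 398 and 669 in the drought apex. The larger response of Potri.017G146600 in leaves gave 4.41, that of Potri.013G014300 gave 6.6 and that of Potri.001G042600 gave 8.20.

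Between 24 hours and 25 days, the log2 differences were 13.67 for Potri.006G108000, 10.03 for Potri.001G192600, -7.01 for Potri.005G206900 and -6.52 for Potri.016G125400. Potri.006G108000 had 0 counts in the long-term drought libraries, so its fitted value depends on the prior count and is no bound, and the call was lost without short-term control library 19 (adjusted p = 0.0741) or 49 (adjusted p = 0.0701). Potri.005G206900 was not called in any of its 9 other fits (adjusted p from 0.0539 to 0.175 by edgeR's test). Of the genes described on the sense strand, Potri.017G146600 differed by 5.46, Potri.004G218400 by -2.06, Potri.013G014300 by 5.74 and Potri.001G042600 by 9.69.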

How the results depend on the processing

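With 2 libraries an arm, counts of calls moved by over 1.5 times in many fits, and the cause was not tested. Leaving out 1 library gave 92 to 6775 calls for sense (4492 with all), 10 to 702 for antisense, 526 to 2337 for intron sense, 41 to 119 for intron antisense, 39 to 209 for the antisense-to-sense ratio, 4 to 2800 for the intron-to-gene ratio, 2382 to 7000 for the tissue interaction and 207 to 1793 for the term interaction. A 2-fold threshold gave 597 sense calls and a dispersion shared with the apex 6753. DESeq2 gave 930 intron sense and 25 intron antisense calls. Without a count filter there were 66 calls of the antisense-to-sense ratio and 188 of the intron-to-gene ratio, which had 149 with own totals. With lists set at 3 instead of 2 on the log2 scale, the median change was -0.0887 against -0.224 (apex), -1.21 against -0.566 (mature leaves) and -0.179 against -1.31 (young leaves). Of 305 refits of 40 named results, 244 kept the call, 61 lost it and none reversed, and 17 results kept it in every fit. Without genes that match a neighbour, calls numbered 358 (antisense), 1806 (intron sense) and 61 (intron antisense).

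Arms compared within leaves share no title number. Apex and leaf libraries do, but deviations of same-numbered libraries from their arm means correlated at r = 0.0216 (19 and 49) and 0.276 (35 and 69), and leaf control library 19 correlated better with apex drought library 35 (r = 0.114), so the numbers are not shown to pair plants. With a replicate block the tissue interaction gave 8785 calls.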
